A study of Mus musculus with 28 samples.

Results

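The genes described here handle iron or bind siderophores, the small iron carriers that bacteria release. They were chosen by name and by role, with no measured value in the rule: Lcn2, Fth1, Ftl1, Tfrc, Slc11a2, Slc11a1, Slc40a1 and Hamp. Earlier results of these data were known when the choice was made. All 8 were present among the 54532 genes of the count table. They were read in 28 cultures of mouse bone marrow-derived macrophages (BMDM), which are bone marrow cells grown into macrophages with recombinant macrophage colony-stimulating factor. The mice were of the strain given as C57/B6JB. Cultures received von Willebrand factor (VWF, a blood protein that tethers platelets, here purified from human plasma and free of factor VIII) at 10 µg/ml, lipopolysaccharide (LPS, a bacterial cell wall component that activates Toll-like receptor 4) at 100 ng/ml, or phosphate-buffered saline as the control. RNA was taken after 3.5 h or 16 h. There were 5 control, 5 VWF and 4 LPS cultures at each time, called biological replicates in the labels. How far cultures with the same replicate number shared an animal was not stated, so the p-values measure the spread between these cultures. The VWF was a human protein given to mouse cells, and all cultures, controls included, were in fresh medium with added CaCl2.

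Macrophages take iron in bound to transferrin, from engulfed red cells and from microbes, keep it in the cytosol inside ferritin, and return it to the blood through ferroportin. During infection the same machinery works to keep iron away from microbes: lipocalin 2 captures their siderophores, metal transporters draw iron out of the phagosome, and hepcidin, a peptide hormone made mainly by the liver, binds ferroportin and leads to its loss from the cell surface. Iron itself acts on several of these transcripts after transcription. When iron is low, iron regulatory proteins bind a short stem-loop called the iron-responsive element. In a 5′ untranslated region (UTR) this blocks translation, so the RNA count need not follow the protein. In a 3′ UTR it protects the transcript from decay and so acts on the RNA level itself.

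The cultures held 41131209 to 77699206 counts each, with a median of 52986574. Summed CPM (the share of a culture's counts that a gene takes, scaled by edgeR's TMM factors) of 7 macrophage markers lay between 4858 and 25694. At 3.5 h the control (9183 to 13692), VWF (9695 to 12699) and LPS cultures (7157 to 12003) overlapped. At 16 h the VWF cultures (18358 to 25694) lay above all control (4858 to 16238) and LPS cultures (6477 to 11906). Against the controls at 16 h, 4 of the 7 markers passed (adjusted p below 0.05) as higher and 0 as lower with VWF, where 27.7% of all genes passed. With LPS 3 were higher and 1 lower, against 53.7%. At 3.5 h 2 were higher and 1 lower with VWF, against 43.6%, and 1 higher and 2 lower with LPS, against 65.7%. The part of these markers in the VWF results at 16 h was not tested. Control 16 h replicate 5 had the lowest sum. This culture also stood apart in Ftl1, Slc11a1 and the ferritin ratio below, so a number of results at 16 h are also given without it. Summed markers of erythroid cells, lymphocytes and hepatocytes did not exceed 0.423, 0.350 and 0.202 CPM in any culture, those of mast cells and basophils did not exceed 3.05 CPM, and those of fibroblasts ranged from 16.3 to 402 CPM with overlap between all groups. In bulk RNA of this kind, fewer cells of a type and less RNA per cell cannot be told apart.

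Iron-responsive elements found by a pattern search in 4 of these genes are shown first because iron can act on transcripts through such elements. In GENCODE release 21 of the mouse (GRCm38), the transcript strand was searched for a bulged C, a stem of 5 bases, the loop CAGTGN and the matching stem, with G-T pairs allowed. Capitals mark the bulged C and the loop.
Fth1, 5′ UTR, chr19:9982731-9982760 (+): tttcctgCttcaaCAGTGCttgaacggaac
Ftl1, 5′ UTR, chr7:45459779-45459808 (−): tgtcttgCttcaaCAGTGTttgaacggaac
Slc40a1, 5′ UTR, chr1:45925465-45925494 (−): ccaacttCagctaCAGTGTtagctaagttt
Tfrc, 3′ UTR, chr16:32631218-32631247 (+): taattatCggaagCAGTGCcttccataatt
Tfrc, 3′ UTR, chr16:32631597-32631626 (+): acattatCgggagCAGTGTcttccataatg
Tfrc, 3′ UTR, chr16:32631662-32631691 (+): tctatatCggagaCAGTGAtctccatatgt
Tfrc, 3′ UTR, chr16:32631709-32631738 (+): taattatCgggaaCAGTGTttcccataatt
Among 22494 protein-coding genes, 28 (0.124%) had a match in a 5′ UTR and 127 (0.565%) in a 3′ UTR. Only coding transcripts tagged as basic in that release were searched. No match was found in the searched UTRs of Lcn2, Slc11a1, Slc11a2 and Hamp, which does not say that these genes lack an iron-responsive element. An element with a further bulge in its stem would not match the pattern.

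**Figure D1:**
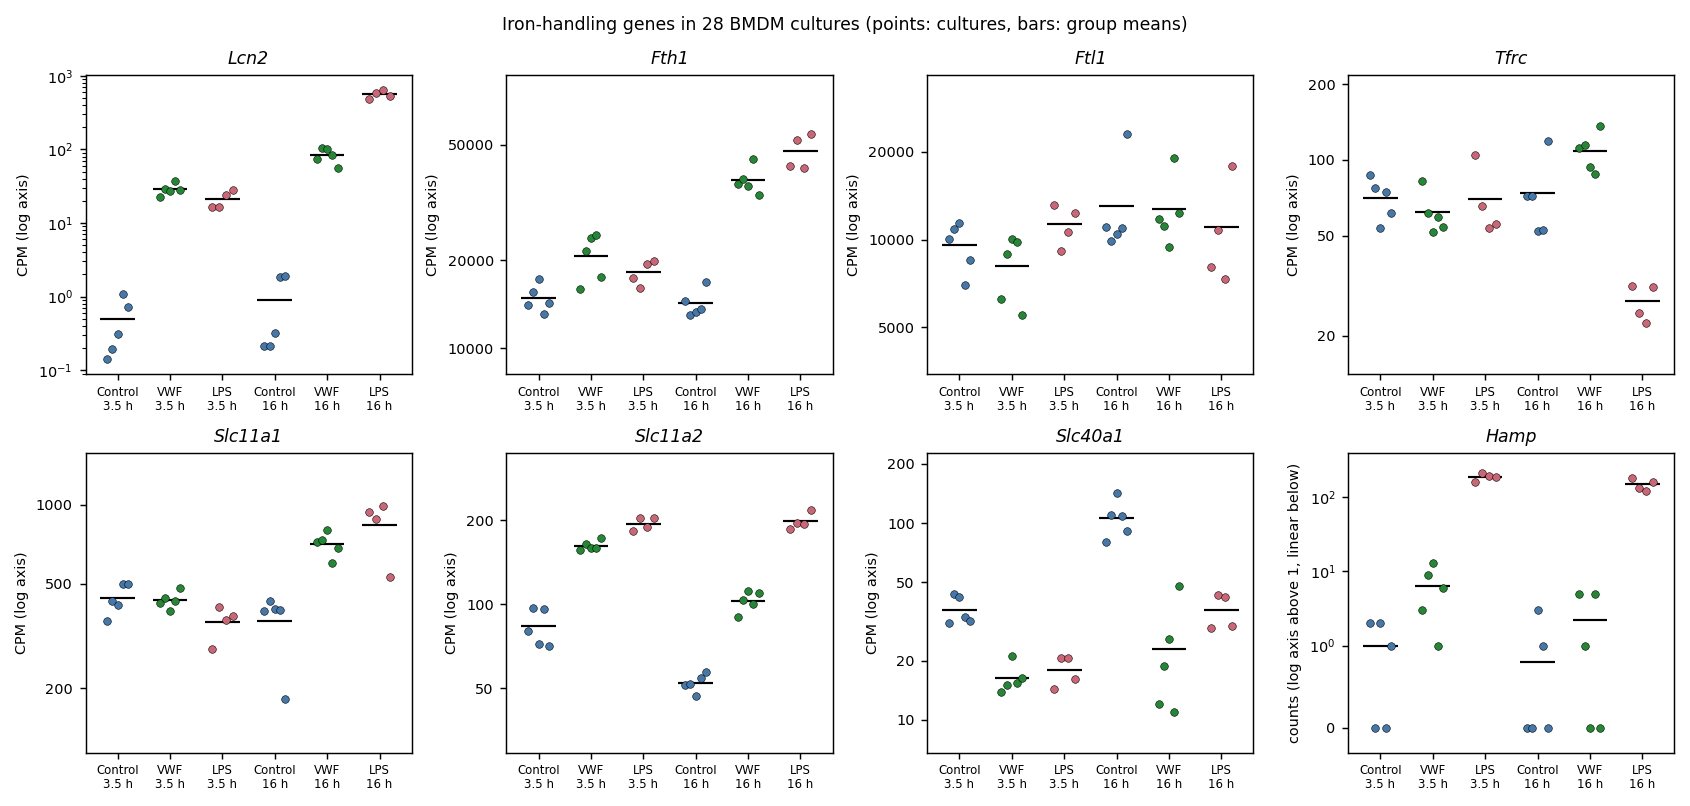
Level of each of the 8 genes in each of the 28 cultures, in CPM on a log axis (Hamp in counts, on an axis that is linear near 0), with cultures as points and group means as lines. Lcn2 lay below 2 CPM in every control culture and between 16.4 and 650 CPM in every VWF or LPS culture.

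Against the control at 3.5 h, VWF-treated cultures had more Lcn2, Slc11a2 and Fth1 and less Slc40a1. By 16 h Slc11a1 was also higher. LPS-treated cultures had more Lcn2, Slc11a2, Fth1 and Hamp and less Slc40a1 at 3.5 h, and by 16 h also more Slc11a1 and less Tfrc. A gene passed the test at an adjusted p below 0.05 and was called where its log2 fold change also exceeded 1 in size. Genes under 10 TPM, the same share per exon length, in every culture of a comparison were not tested, and some genes passed that filter only through the group in which they were high. This was so for Lcn2 in each comparison with control (treated cultures), for Slc40a1 at 3.5 h (controls), and for Hamp in each comparison with LPS (LPS cultures). Between the times, Slc40a1 entered through a single culture, VWF 16 h replicate 5 (15.4 TPM) with VWF and LPS 16 h replicate 3 (11.1 TPM) with LPS. Such a filter favors a difference, so the counts below describe the set and are read as no more. Slc40a1 between the times with VWF did not pass (log2 0.50, adjusted p = 0.236). As it entered through a single culture, this does not say how the filter acted on the other genes. With no filter, where this choice does not arise, the adjusted p for VWF and LPS at 3.5 h was 4.77e-06 and 8.53e-05 for Lcn2 and 8.75e-06 and 1.13e-05 for Slc40a1, and for LPS 2.74e-14 for Hamp. At 16 h it was 8.93e-05 and 1.22e-05 for Lcn2 and, for LPS, 1.08e-06 for Hamp.

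For VWF against control at 3.5 h, 3 of 7 tested genes passed as higher and 1 as lower, where 43.6% of all genes tested passed in either direction. Of the 7, 2 were called, against 14.7% of all genes. At 16 h, 4 of 7 passed as higher and 1 as lower, against 27.7% of all genes, and 3 were called, against 8.71%. For LPS against control at 3.5 h, 4 of 8 passed as higher and 1 as lower, against 65.7%, and 3 were called, against 24.5%. At 16 h, 5 of 8 were higher and 2 lower, all of them called, against backgrounds of 53.7% passed and 27.6% called. Without Control 16 h replicate 5, 6 of 7 passed for VWF at 16 h, Tfrc being the gene added, where 42.6% of all genes then passed, and the same 7 of 8 for LPS, where 62.2% did. The log2 fold changes for VWF and LPS at 16 h were then 1.46 and 1.84 for Fth1, -2.27 and -1.57 for Slc40a1 and 1.00 and 1.99 for Slc11a2. Both agonists were compared with the same control cultures, so their effects on these genes are not independent of each other.

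**Figure D2:**
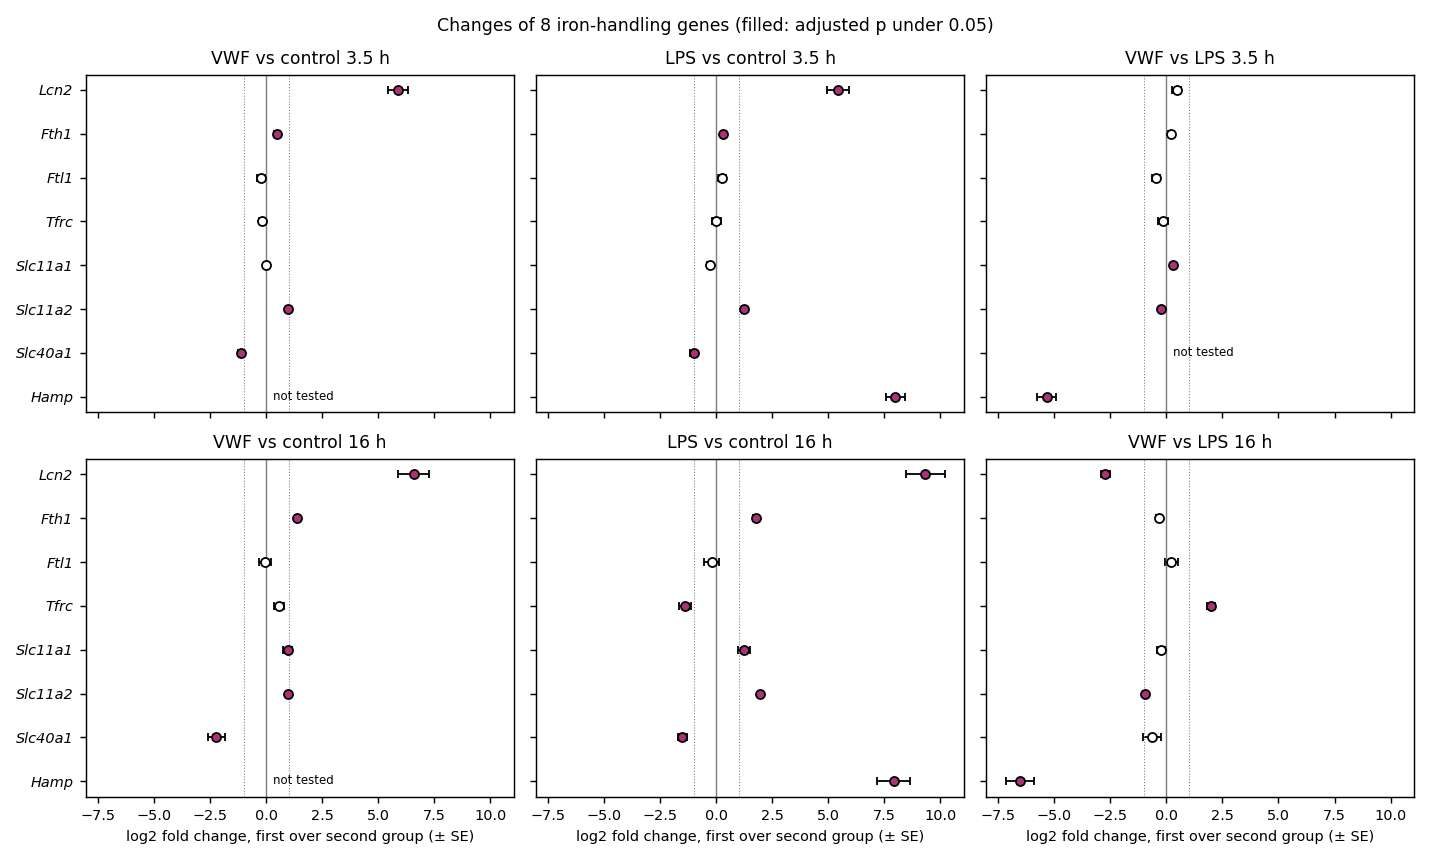
Log2 fold change of each gene, with its standard error as a bar, in the 4 comparisons with control and the 2 comparisons of VWF with LPS. Filled points passed at an adjusted p below 0.05. The Lcn2 points lie at 5.44 to 9.33 against control, and the Slc40a1 points at -2.22 to -0.997.

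Lcn2 (ENSMUSG00000026822, chr2:32384633-32388252, minus strand) encodes lipocalin 2, a secreted protein that binds catecholate siderophores such as enterobactin. The 5 control cultures at 3.5 h had 0.141, 0.194, 0.307, 1.07 and 0.730 CPM, from 8 to 80 counts. The VWF cultures had 22.8, 29.1, 27.3, 37.0 and 27.7 CPM and the LPS cultures 16.7, 16.4, 24.2 and 28 CPM. Every treated culture lay far above every control culture, and the VWF and LPS cultures overlapped. The log2 fold change was 5.87 (SE 0.45, adjusted p = 8.57e-07) for VWF, a 58.6-fold difference, and 5.44 (SE 0.48, adjusted p = 1.92e-06) for LPS.

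The later controls, at 16 h, had 0.216, 0.212, 0.324, 1.87 and 1.91 CPM of Lcn2. Replicates 4 and 5 were the highest controls at both times. The VWF cultures had 75.1, 105, 102, 85.2 and 55.1 CPM, and the LPS cultures 477, 575, 650 and 533 CPM. The 3 groups did not overlap. The log2 fold change against control was 6.58 (SE 0.70, adjusted p = 5.6e-05) for VWF and 9.33 (SE 0.86, adjusted p = 1.37e-05) for LPS. With Control 16 h replicate 5 left out these were 7.07 and 9.81.

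VWF and LPS had not separated for Lcn2 at 3.5 h (log2 difference 0.46, SE 0.18, adjusted p = 0.0596), and DESeq2 put the same difference just past the threshold (0.44, adjusted p = 0.0473). By 16 h VWF cultures were 6.6-fold lower than the LPS cultures (log2 -2.72, SE 0.19, adjusted p = 1.57e-06). Between 3.5 h and 16 h Lcn2 rose 2.96-fold with VWF (adjusted p = 1.8e-05) and 26.8-fold with LPS (adjusted p = 6.27e-07). The LPS effect on Lcn2 was larger at 16 h than at 3.5 h by 3.94 on the log2 scale (SE 0.88, adjusted p = 0.00135). For VWF the same difference was 0.73 (SE 0.78, adjusted p = 0.545), so a change in the VWF effect was not resolved. In order of mean level the groups ran LPS 16 h, VWF 16 h, VWF 3.5 h, LPS 3.5 h, Control 16 h and Control 3.5 h. The neighbors VWF 3.5 h and LPS 3.5 h, and the 2 control groups, overlapped.

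Neutrophils store lipocalin 2 in their granules, so their markers are given beside it. The summed level of 10 neutrophil markers was 27.9 to 48.9 CPM in the controls at 3.5 h, 59.4 to 92.2 with VWF and 44.3 to 74.7 with LPS. At 16 h it was 32.9 to 50.04, 56.5 to 68.4 and 143 to 230 CPM. Most of this sum was Csf3r, the receptor for granulocyte colony-stimulating factor, whose mean was 26.9, 63.7 and 44.3 CPM at 3.5 h and 22.2, 38.0 and 176 CPM at 16 h in control, VWF and LPS cultures. Ly6g, a defining neutrophil marker, was at 0 in every culture of 4 groups, both VWF groups and LPS 16 h among them. With VWF 1 of 4 tested neutrophil markers passed as higher than control at 3.5 h and 2 of 4 at 16 h. Of all genes, 43.6% and 27.7% passed there. With LPS it was 3 of 3 and 1 of 3, against 65.7% and 53.7%, and 0 passed as lower in these 4 comparisons. The part of neutrophils or other cell types in the Lcn2 result was not tested. Summed dendritic cell markers were also higher with LPS at both times (12.9 to 29.8 CPM at 16 h, against 0.611 to 1.95 in the controls), as they were with VWF at 3.5 h (13.6 to 19.3 against 1.21 to 1.85). Only 1 of these 4 markers reached the 10 TPM filter for LPS against control (log2 5.55 at 3.5 h and 5.36 at 16 h), and 0 did for VWF. The sum is thus not read as a rise of the markers as a set.

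The 5 genes whose levels followed Lcn2 most closely across the 28 cultures, by Pearson's r of log2 CPM, were Fpr2 (0.973), Saa3 (0.963), Agtrap (0.961), Sod2 (0.955) and Orm1 (0.949). They were searched for among 8867 genes, and the cultures share the strong difference between treated and control groups. Of the other genes of the siderophore group, Slc22a17, which encodes a receptor for lipocalin 2, and Ltf, which encodes the iron-binding protein lactoferrin, stayed under 10 TPM and were not tested. Bdh2, an enzyme linked to the making of a mammalian siderophore, was lower at 3.5 h with VWF (log2 -0.65, adjusted p = 0.0252) and with LPS (-0.91, adjusted p = 0.000794).

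Fth1 (ENSMUSG00000024661, chr19:9980598-9985098, plus strand) encodes the ferritin heavy chain, which oxidizes iron so that it can be stored. It drew 1.34% to 4.42% of all counts in a culture and was the most counted gene in every culture outside the Control 16 h group. The controls at 3.5 h had 14070, 15540, 17200, 13098 and 14335 CPM. The VWF cultures had 15986, 21510, 23908, 24536 and 17537 CPM, and the LPS cultures 17358, 16126, 19427 and 19866 CPM. The lowest treated cultures reached into the control range with both agonists. Fth1 was 1.42-fold higher with VWF (log2 0.51, SE 0.13, adjusted p = 0.00954), which was lost when only total counts set the scale (0.28, adjusted p = 0.0530). With LPS it was 1.24-fold higher (0.31, SE 0.12, adjusted p = 0.0403), a call that was lost in 6 of 9 fits without 1 culture and turned to -0.21 when only total counts set the scale.

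At 16 h the controls had 14488, 13006, 13296, 13650 and 16865 CPM of Fth1, close to their earlier level (log2 -0.05, SE 0.12, adjusted p = 0.761). The VWF cultures had 36545, 38034, 35991, 44456 and 33584 CPM and the LPS cultures 42072, 51856, 41653 and 54376 CPM. All treated cultures lay above all controls, and the VWF and LPS ranges overlapped. Fth1 was 2.63-fold higher with VWF (log2 1.40, SE 0.12, adjusted p = 8.94e-06) and 3.42-fold higher with LPS (1.77, SE 0.15, adjusted p = 5.47e-06). The effect at 16 h exceeded that at 3.5 h by 0.91 for VWF (SE 0.17, adjusted p = 0.000358) and by 1.47 for LPS (SE 0.18, adjusted p = 3.25e-06). The difference between VWF and LPS at 16 h was -0.33 (SE 0.14, adjusted p = 0.0593) without and -0.29 (adjusted p = 0.0218) with the replicate number as a block.

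Ftl1 (ENSMUSG00000050708, chr7:45457944-45459884, minus strand) encodes the ferritin light chain, which helps the iron core to form. The control, VWF and LPS groups had 9549 ± 1811 (SD, n = 5), 8101 ± 2077 (n = 5) and 11306 ± 1772 CPM (n = 4) at 3.5 h. At 16 h they had 13080 ± 5596, 12772 ± 3728 and 11018 ± 4843 CPM, and the groups overlapped throughout. Control 16 h replicate 5 had 23054 CPM where the other 4 controls had 9876 to 11044. No comparison with control passed (log2 -0.21, adjusted p = 0.432 and -0.04, adjusted p = 0.940 for VWF at 3.5 h and 16 h, and 0.26, adjusted p = 0.196 and -0.21, adjusted p = 0.648 for LPS). Without Control 16 h replicate 5 the 16 h values turned to 0.26 and 0.10 and still did not pass. When only total counts set the scale, Ftl1 passed as lower with LPS at 16 h. Ftl1 is also the least certain count: 34.4% of the 100-base windows of its transcripts occur in Ftl1-ps1, Ftl2-ps, Gm15590 or Gm22133, and 34.6% of its exon length overlaps Gm10252 or Gm22133. For the other 7 genes the share of windows found elsewhere was 0.21% for Fth1 and 0 for the rest.

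Fth1 thus passed against control where Ftl1 did not, and the ratio of the 2 transcripts was followed within each culture, in TPM of Fth1 over TPM of Ftl1. The limits of the Ftl1 count given above hold for this ratio too. At 3.5 h the ratio was 0.540, 0.552, 0.585, 0.726 and 0.653 in the controls and 0.986, 0.934, 0.921, 0.967 and 1.23 with VWF, with no overlap. In LPS cultures it was 0.511, 0.680, 0.707 and 0.622, overlapping the controls. At 16 h it was 0.507, 0.509, 0.493, 0.479 and 0.283 in the controls, 1.19, 1.32, 1.47, 0.897 and 1.05 with VWF, and 2.02, 1.86, 2.20 and 1.17 with LPS. Both treated groups stood above the controls at 16 h, and only VWF did so at 3.5 h.

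In exact two-sided permutation tests on the log2 ratio, adjusted over 18 tests, VWF raised the Fth1 to Ftl1 ratio 1.65-fold at 3.5 h (p = 0.00794, the smallest possible with 5 against 5, adjusted p = 0.0317) and 2.64-fold at 16 h (the same p values). LPS raised it 3.97-fold at 16 h (exact p = 0.0159, adjusted p = 0.0317), with a difference of 0.04 on the log2 scale at 3.5 h (exact p = 0.762). At 3.5 h VWF lay 1.6-fold above LPS (exact p = 0.0159, the smallest possible with 5 against 4, adjusted p = 0.0317). At 16 h it lay below LPS by 0.59 on the log2 scale, which did not pass (exact p = 0.0635). Without Control 16 h replicate 5 the log2 differences from control at 16 h were 1.24 for VWF and 1.83 for LPS. Whether the ratio lies above or below 1 depends on the lengths used: with the principal transcript of each gene in place of all its exons the group means were 1.22 to 4.89, and only the comparison across groups is read here.

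**Figure D3:**
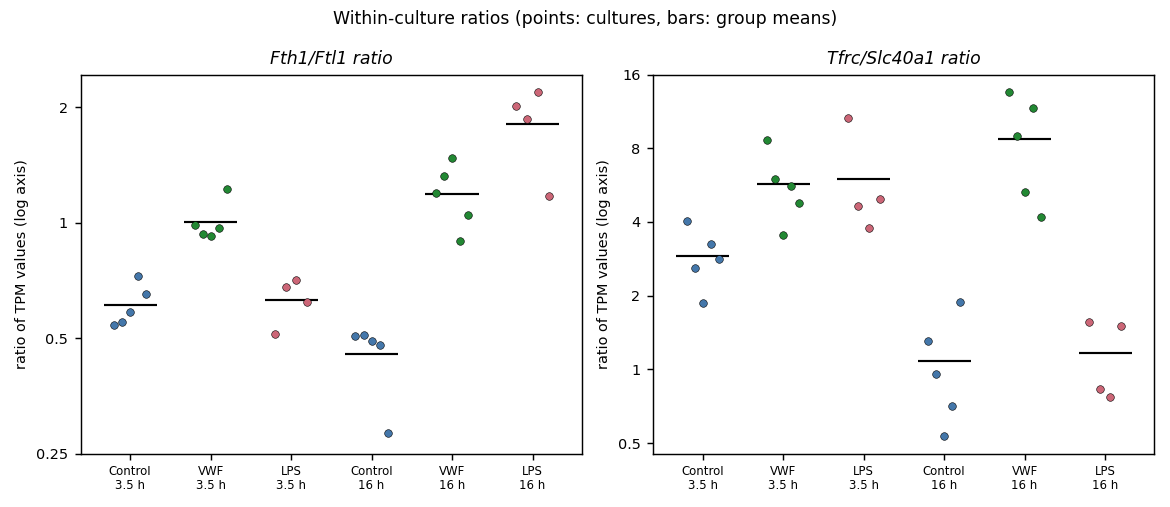
Ratio of Fth1 to Ftl1 and of Tfrc to Slc40a1, both in TPM, in each of the 28 cultures on log axes, with group means as lines. The Fth1 to Ftl1 ratio is highest at 16 h with LPS (mean 1.81), and the Tfrc to Slc40a1 ratio at 16 h with VWF (mean 8.73).

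Tfrc (ENSMUSG00000022797, chr16:32608920-32632794, plus strand) encodes the transferrin receptor, the main route by which cells take up transferrin-bound iron. At 3.5 h the controls had 86.8, 77.5, 53.6, 74.2 and 61.4 CPM, the VWF cultures 82.5, 61.7, 51.9, 59.2 and 54.1, and the LPS cultures 105, 65.7, 53.4 and 55.4 CPM. All 3 groups overlapped, and neither agonist passed (VWF log2 -0.16, SE 0.16, adjusted p = 0.466). At 16 h the controls had 72.0, 72.1, 52.1, 52.8 and 119 CPM, the VWF cultures 112, 115, 93.6, 88.0 and 137 CPM, and the LPS cultures 31.4, 24.7, 22.4 and 31.2 CPM. The LPS cultures lay below all others, and the VWF cultures lay above 4 of the 5 controls.

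Tfrc was 2.62-fold lower with LPS than in the controls at 16 h (log2 -1.39, SE 0.26, adjusted p = 0.00155, and -1.15 without Control 16 h replicate 5) and 3.98-fold higher with VWF than with LPS (1.99, SE 0.17, adjusted p = 5.04e-06). The difference between VWF and control was 0.56 (SE 0.22, adjusted p = 0.0901). It passed without Control 16 h replicate 5 (0.79, adjusted p = 0.00218), the control with the most Tfrc. From 3.5 h to 16 h Tfrc rose with VWF (0.82, SE 0.15, adjusted p = 0.000555) and fell with LPS (-1.33, SE 0.24, adjusted p = 0.0013), while the controls differed by 0.07 (adjusted p = 0.816). The LPS effect changed between the times by -1.38 (SE 0.36, adjusted p = 0.00395) and the VWF effect by 0.73 (SE 0.29, adjusted p = 0.0648), the latter 0.99 (adjusted p = 0.00212) without that control.

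Slc11a2 (ENSMUSG00000023030, chr15:100387898-100425072, minus strand) encodes the divalent metal transporter that moves iron out of the endosome once transferrin has released it. The controls had 80.4, 96.6, 72.0, 96.5 and 70.8 CPM at 3.5 h, the VWF cultures 157, 164, 159, 159 and 173, and the LPS cultures 183, 203, 189 and 205 CPM. The 16 h values were 51.3, 51.7, 47.0, 54.5 and 56.9 in the controls, 90.3, 103, 112, 99.9 and 110 with VWF, and 186, 196, 194 and 218 with LPS. At both times the 3 groups did not overlap and ran control, VWF, LPS from low to high. VWF raised it 1.99-fold at 3.5 h (adjusted p = 7.85e-06) and 1.96-fold at 16 h (adjusted p = 9.41e-06), with no difference between the times beyond error (log2 -0.00, SE 0.13, adjusted p = 0.996).

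LPS raised Slc11a2 2.37-fold at 3.5 h (log2 1.25, SE 0.11, adjusted p = 2.09e-06) and 3.9-fold at 16 h (1.96, SE 0.09, adjusted p = 1.62e-07), a larger effect at the later time by 0.73 (SE 0.15, adjusted p = 0.0006). With LPS the level itself did not change between the times (0.06, SE 0.09, adjusted p = 0.612), while it fell in the controls (-0.66, SE 0.11, adjusted p = 0.0011) and with VWF (-0.65, adjusted p = 1.51e-05). VWF stayed below LPS, by 0.94 on the log2 scale at 16 h (log2 -0.94, SE 0.09, adjusted p = 1.01e-05). At 3.5 h the difference was -0.24 (SE 0.07, adjusted p = 0.0171), which was lost without LPS 3.5 h replicate 4 (-0.22, adjusted p = 0.0535) and turned to 0.05 when only total counts set the scale. Of its exon length, 6.33% overlaps Gm5475 on the other strand, and the strand setting of the counting was not given in the sources used here.

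Slc11a1 (ENSMUSG00000026177, chr1:74375195-74386062, plus strand) encodes NRAMP1, a metal transporter of the phagosome membrane. Mice of the C57BL/6 background carry an allele whose protein is inactive, so these counts speak of the transcript alone. At 3.5 h the control, VWF and LPS groups had 439 ± 59.1 (SD, n = 5), 433 ± 31.6 (n = 5) and 358 ± 53.5 CPM (n = 4), and neither agonist passed (log2 0.01, adjusted p = 0.958 and -0.27, adjusted p = 0.0829). At 16 h the controls had 393, 430, 401, 396 and 182 CPM, the VWF cultures 721, 730, 798, 599 and 685, and the LPS cultures 940, 885, 984 and 531 CPM. All treated cultures lay above all controls, and 1 control and 1 LPS culture lay far below the rest of their groups.

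Slc11a1 was 1.94-fold higher with VWF (log2 0.96, SE 0.22, adjusted p = 0.00707) and 2.38-fold higher with LPS (1.25, SE 0.27, adjusted p = 0.0032) at 16 h. Leaving out Control 16 h replicate 5 gave 0.79 (adjusted p = 5.66e-05) and 1.08 (adjusted p = 0.000703). The LPS call was lost when only total counts set the scale (0.69, adjusted p = 0.0843). The effect was larger at 16 h than at 3.5 h by 0.98 for VWF (SE 0.23, adjusted p = 0.00287) and 1.54 for LPS (SE 0.31, adjusted p = 0.000537). With 1 culture left out in turn these ranged from 0.82 to 1.07 and from 1.37 to 1.70. VWF and LPS differed by -0.24 at 16 h (SE 0.18, adjusted p = 0.275), and by -0.41 (adjusted p = 0.00704) without LPS 16 h replicate 4. At 3.5 h they differed by 0.30 (SE 0.11, adjusted p = 0.0469), which was lost in 7 of 9 fits without 1 culture.

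Slc40a1 (ENSMUSG00000025993, chr1:45908068-45926523, minus strand) encodes ferroportin, the known exporter of iron from mammalian cells. At 3.5 h the controls had 31.2, 43.4, 41.9, 33.2 and 31.7 CPM, the VWF cultures 13.8, 15, 21.2, 15.3 and 16.4, and the LPS cultures 14.3, 20.6, 20.6 and 16.2 CPM. Every treated culture lay below every control. At 16 h the controls had 80.2, 109, 142, 108 and 91.6 CPM, the VWF cultures 12.0, 18.7, 25.7, 10.9 and 47.7, and the LPS cultures 29.3, 43.1, 42.2 and 30.1 CPM. The treated cultures again lay below all controls, and VWF 16 h replicate 5 stood above the rest of its group.

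Slc40a1 was 2.18-fold lower with VWF at 3.5 h (log2 -1.12, SE 0.14, adjusted p = 3.87e-05) and 4.65-fold lower at 16 h (-2.22, SE 0.39, adjusted p = 0.00169). With LPS it was lower at 3.5 h (log2 -0.997, SE 0.15, adjusted p = 0.000179) and 2.87-fold lower at 16 h (-1.52, SE 0.20, adjusted p = 0.000136). Over the same hours it rose 2.95-fold in the controls (1.56, SE 0.16, adjusted p = 5.53e-05) and 2.06-fold with LPS (1.04, SE 0.18, adjusted p = 0.000965), while with VWF the change was 0.50 (SE 0.36, adjusted p = 0.236). The VWF effect differed between the times by -1.07 (SE 0.42, adjusted p = 0.0557), and by -1.52 (adjusted p = 0.000672) without VWF 16 h replicate 5. For LPS the same difference was -0.51 (SE 0.24, adjusted p = 0.0979).

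At 16 h VWF and LPS differed in Slc40a1 by -0.65 (SE 0.41, adjusted p = 0.202). With the replicate number as a block the difference was -1.16 (adjusted p = 6.3e-05), and without VWF 16 h replicate 5 it was -1.09 (adjusted p = 0.0118). At 3.5 h this pair was not tested, since no culture reached 10 TPM. The groups ran Control 16 h, Control 3.5 h, LPS 16 h, VWF 16 h, LPS 3.5 h and VWF 3.5 h by mean level, with overlap between each neighboring pair except the first. The genes most like Slc40a1 over the 28 cultures were Car5b (r = 0.883), Vsir (0.859), Megf9 (0.854), Ppm1j (0.848) and Arhgap9 (0.842).

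The ratio of Tfrc to Slc40a1, in TPM, sets the import receptor against the exporter within a culture. At 3.5 h it was 4.04, 2.60, 1.86, 3.25 and 2.82 in the controls, 8.69, 5.99, 3.56, 5.62 and 4.80 with VWF, and 10.6, 4.64, 3.78 and 4.98 with LPS. At 16 h it was 1.31, 0.958, 0.533, 0.711 and 1.89 in the controls, 13.5, 8.94, 5.31, 11.7 and 4.17 with VWF, and 1.56, 0.832, 0.774 and 1.51 with LPS. There the VWF cultures lay above all others, and the LPS cultures fell within the control range. VWF raised the ratio 1.95-fold at 3.5 h (exact permutation p = 0.0159, adjusted p = 0.0317) and 8.10-fold at 16 h (exact p = 0.00794, adjusted p = 0.0317). LPS raised it 1.96-fold at 3.5 h (exact p = 0.0317, adjusted p = 0.0476, lost in 7 of 9 runs without 1 culture), and at 16 h the difference was 0.18 on the log2 scale (exact p = 0.683). The ratio was 7.14-fold higher with VWF than with LPS at 16 h (exact p = 0.0159, adjusted p = 0.0317). With Control 16 h replicate 5 left out, the log2 differences from control at 16 h were 3.26 for VWF and 0.42 for LPS.

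Both ratios moved with time as well. The Tfrc to Slc40a1 ratio was 2.88-fold lower at 16 h than at 3.5 h in the controls (exact p = 0.0159, adjusted p = 0.0317) and 4.97-fold lower with LPS (exact p = 0.0286, the smallest possible with 4 against 4, adjusted p = 0.0468). With VWF it differed by 0.53 on the log2 scale (exact p = 0.198). The Fth1 to Ftl1 ratio was 2.82-fold higher at 16 h with LPS (exact p = 0.0286, adjusted p = 0.0468) and 1.37-fold lower in the controls (exact p = 0.00794, adjusted p = 0.0317). The control difference was -0.45 on the log2 scale, and -0.29 without Control 16 h replicate 5, the culture with the lowest ratio. Tests without 1 LPS culture cannot reach 0.05 in the LPS comparison.

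Hamp (ENSMUSG00000050440, chr7:30942368-30944032, minus strand) encodes hepcidin. It was read in single counts outside the LPS groups. The controls had 2, 0, 2, 0 and 1 counts at 3.5 h and 0, 0, 3, 1 and 0 at 16 h. The LPS cultures had 164, 211, 195 and 186 counts at 3.5 h and 182, 134, 124 and 160 at 16 h. All LPS cultures stood above all others by more than 100 counts. Pooled over each group and scaled to depth, Hamp was 287 times the control level at 3.5 h (exact 95% interval 123 to 887, counting error only) and 278 times at 16 h (108 to 1025).

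The fitted log2 fold changes of Hamp with LPS were 7.98 (adjusted p = 2.8e-08) and 7.91 (adjusted p = 1.33e-05), and rest on the few control counts and on a filter that Hamp passed through the LPS cultures. Without Control 16 h replicate 3, which held 3 of the 4 counts of its group, the second was 9.20. With VWF the cultures had 3, 9, 13, 1 and 6 counts at 3.5 h and 5, 1, 0, 5 and 0 at 16 h, overlapping the controls at both times. The pooled ratio to control was 6.74 (2.61 to 22.2) at 3.5 h and 2.83 (0.837 to 12.2) at 16 h. VWF against control was not tested under the 10 TPM filter. With no filter the 3.5 h difference had an adjusted p of 0.0501, and with the filter taken over all cultures 0.0272. VWF was 40.6-fold below LPS at 3.5 h (adjusted p = 3.66e-06) and 92.4-fold below at 16 h (adjusted p = 1.38e-05), with adjusted p of 5.47e-10 and 7.04e-07 when no filter was used.

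Hepatocytes are the main source of hepcidin. Summed over 4 hepatocyte markers (Alb, Apoa1, Ttr and Serpina1a), their level was at most 0.0971 CPM in the controls and 0.0178 with VWF, and reached 0.0519 CPM with LPS at 3.5 h and 0.202 with LPS at 16 h, the highest sum of any group. Alb and Serpina1a were at 0 in every LPS culture, Ttr in every LPS culture at 3.5 h, and Apoa1 in neither LPS group. Their part in the Hamp result was not tested. Hamp2, the paralog of Hamp, was at 0 in all but the Control 3.5 h group, where the highest culture had 2 counts, and no 100-base window of Hamp occurs in another gene. The 250 bases before the RefSeq start of Hamp (GRCm38.p6, minus strand, chr7:30944030-30944279) are shown because Hamp is the gene here that LPS raised from near 0. Capitals mark a GGCGCC, the letters of the BMP-responsive element, 109 bases before the start, and a match to TTCNNNGAA, the letters of a STAT site, 97 bases before it.
Hamp: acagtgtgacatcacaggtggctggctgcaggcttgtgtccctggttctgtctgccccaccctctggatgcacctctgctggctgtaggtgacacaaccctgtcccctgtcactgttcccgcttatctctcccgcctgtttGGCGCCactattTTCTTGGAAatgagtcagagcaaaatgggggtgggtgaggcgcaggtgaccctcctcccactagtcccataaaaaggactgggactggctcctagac
Searched on both strands, GGCGCC occurred in 11.9% and TTCNNNGAA in 8.30% of 32851 RefSeq promoters of 300 bases. RefSeq promoters were matched for 6 of the 8 genes. Of these, an NF-kappaB motif, found in 8.46% of all promoters, occurred only in that of Ftl1, and TGACNNNGC, the antioxidant response element, found in 12.4%, occurred in none. TTNNGNAA, the C/EBP motif, is too frequent (40.7%) to set genes apart. A match is a description of the letters, not of binding.

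Set against LPS at 3.5 h, VWF left 1 of 7 tested genes higher (Slc11a1) and 2 lower (Slc11a2 and Hamp), where 50.2% of all genes passed, and 1 was called, against 11.4%. At 16 h 1 of 8 was higher (Tfrc) and 3 lower (Lcn2, Slc11a2 and Hamp), against 60.5%, and 3 were called, against 25.5%. With the replicate number as a block, 6 of 8 passed, Slc40a1 and Fth1 (both lower) being the genes added, against 74.2% of all genes, and 4 were called, against 25.7%. Between 3.5 h and 16 h, 5 of 7 rose with VWF (Lcn2, Fth1, Ftl1, Tfrc and Slc11a1) and 1 fell (Slc11a2), against 68.0% passed, and 1 was called, against 21.4%. With LPS 4 of 8 rose and 1 fell, against 60.9% passed, and all 5 were called, against 28.1%. In the controls Slc40a1 rose and Slc11a2 fell among 6 tested, against 41.4% passed, and Slc40a1 alone was called, against 9.11%. The VWF effect changed between the times for 2 of 7 genes, against 32.4% passed, and 0 were called, against 13.5%. The LPS effect changed for 5 of 8, against 48.8%, and 4 were called, against 26.3%. A share near its background does not set these genes apart from other genes.

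Beyond the 8 genes, 65 others from 7 lists of iron genes were followed. With VWF at 3.5 h, 10 of the 41 tested passed as higher and 11 as lower, with a median log2 change of -0.06. At 16 h 9 of 39 were higher and 4 lower (median 0.05). With LPS at 3.5 h 11 of 40 were higher and 16 lower (median -0.07), and at 16 h 12 of 41 were higher and 16 lower (median -0.19). The median of all genes tested lay between -0.03 and 0.0015 in these comparisons, and 43.6%, 27.7%, 65.7% and 53.7% of all genes passed, in the same order. The counts of the single lists below stand against the same shares, and nothing is read from a list near them. Without Control 16 h replicate 5, 11 were higher and 5 lower with VWF at 16 h (median 0.04), and 13 higher and 16 lower with LPS (median -0.09). When only total counts set the scale, 6 were higher and 19 lower with VWF at 3.5 h (median -0.28) and 7 higher and 4 lower at 16 h. Under that scale the median of all genes was -0.54 for LPS at 3.5 h and -0.57 at 16 h. The LPS counts were then 4 higher and 28 lower at 3.5 h and 8 higher and 24 lower at 16 h.

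**Figure D4:**
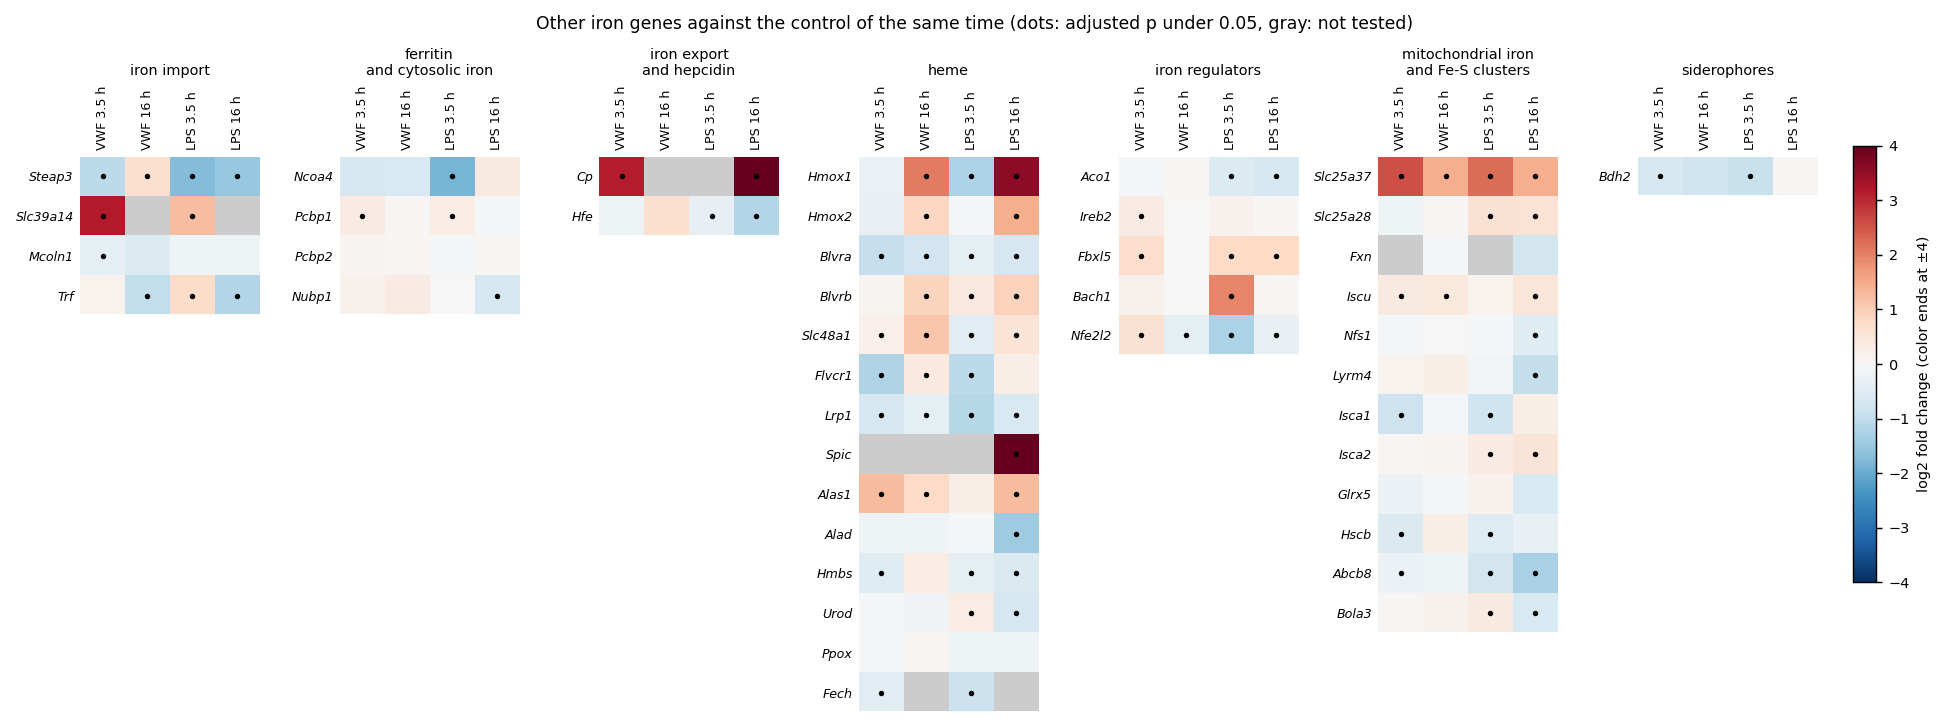
Log2 fold change of tested iron genes outside the 8, by list, in the 4 comparisons with control, as a heat map with a dot where the adjusted p was below 0.05 and gray where a gene was not tested. Slc39a14 at 3.5 h with VWF (3.18) and Cp (6.19) and Spic (5.27) at 16 h with LPS are among the strongest colors.

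Among the 12 genes of iron import, members included, 2 of 7 tested were higher and 2 lower with VWF at 3.5 h, and 3 of 6 higher and 1 lower at 16 h. With LPS 3 of 7 were higher and 1 lower, then 2 of 6 higher and 3 lower. Slc39a14, a transporter of zinc and of iron not bound to transferrin, rose from 23.9 ± 5.26 to 212 ± 36.9 CPM with VWF (SD, n = 5 each, log2 3.18, SE 0.17, adjusted p = 5.55e-08) and to 55.5 ± 8.64 CPM with LPS (1.24, SE 0.16, adjusted p = 4.25e-05). At 3.5 h it was higher with VWF than with LPS (1.95, SE 0.15, adjusted p = 3.24e-06). Steap3, which reduces iron in the endosome so that Slc11a2 can carry it, fell at 3.5 h with VWF (-1.04, adjusted p = 1.8e-05) and with LPS (-1.74, adjusted p = 7.42e-07). At 16 h Steap3 was higher with VWF (0.65, adjusted p = 0.00871, and 0.0513 when only total counts set the scale) and lower with LPS (-1.5, adjusted p = 0.000239). As with Tfrc, the difference between VWF and LPS at 16 h was itself past the test (2.20, SE 0.16, adjusted p = 2.27e-06).

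In the group of export and hepcidin, with 10 genes, 1 of 3 tested was higher and 1 lower with VWF at 3.5 h and 1 of 2 lower at 16 h, and with LPS 1 of 3 was higher and 2 lower, then 2 of 4 higher and 2 lower. Cp, the ferroxidase ceruloplasmin that works with ferroportin, rose with VWF at 3.5 h (log2 3.16, SE 0.23, adjusted p = 6.38e-07) and with LPS at 16 h (6.19, SE 0.44, adjusted p = 2.32e-06). In both it passed the 10 TPM filter only through the treated cultures, which favors a difference. The mean of Cp was 3.08, 27.0 and 23.5 CPM in control, VWF and LPS cultures at 3.5 h and 1.32, 18.3 and 95.04 CPM at 16 h. For LPS at 3.5 h and VWF at 16 h no culture of the comparison with control reached 10 TPM, so neither was tested. There too every treated culture lay above every control. In the group of ferritin and cytosolic iron, all 6 genes were tested. With VWF 2 were higher at 3.5 h and 1 at 16 h, and with LPS 2 were higher and 1 lower, then 1 higher and 1 lower. Ncoa4, the receptor that takes ferritin to the lysosome, fell with LPS at 3.5 h (-1.87, SE 0.43, adjusted p = 0.00271), and Pcbp1, a chaperone that hands iron to ferritin, was higher at 3.5 h with VWF (0.33, adjusted p = 0.00374) and with LPS (0.29, adjusted p = 0.00995), but at 0.11 (adjusted p = 0.163) and -0.23 when only total counts set the scale.

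Of the 20 heme genes, 2 of 13 tested were higher and 5 lower with VWF at 3.5 h, and 6 of 12 were higher and 2 lower at 16 h. With LPS it was 2 higher and 7 lower of 13, then 6 higher and 5 lower. Hmox1, the heme oxygenase that frees iron from heme, had 1338 ± 132, 1101 ± 102 and 555 ± 24.9 CPM in control, VWF and LPS cultures at 3.5 h, and 634 ± 107, 2691 ± 536 and 7321 ± 377 CPM at 16 h. It was lower with LPS at 3.5 h (log2 -1.25, SE 0.10, adjusted p = 7.82e-07), while VWF gave -0.25 (adjusted p = 0.0523). The VWF difference passed as lower with DESeq2 (-0.26, adjusted p = 0.0119) and with median-of-ratios factors (-0.26, adjusted p = 0.0403). It also passed when only total counts set the scale (-0.47, adjusted p = 0.000895). At 16 h it was higher with VWF (2.08, SE 0.18, adjusted p = 1.65e-05) and with LPS (3.57, SE 0.15, adjusted p = 8.72e-08). The turn between the times was past the test for both (4.83, adjusted p = 6.31e-12 for LPS and 2.35, adjusted p = 2.4e-08 for VWF).

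Around Hmox1, Slc48a1, which carries heme out of the phagolysosome, and Blvrb, a biliverdin reductase, rose with VWF at 16 h (1.10, adjusted p = 3.5e-06 and 0.88, adjusted p = 2.15e-05). Slc48a1 was also higher with LPS at 16 h (0.54, adjusted p = 0.00138), which was lost when only total counts set the scale. Blvrb differed between VWF and LPS at 16 h by 0.00011 (adjusted p = 0.999), and by 0.44 (adjusted p = 0.000806) under that scale. Spic, a transcription factor of heme-recycling macrophages, rose with LPS at 16 h from 1.94 to 73.2 CPM (5.27, SE 0.19, adjusted p = 4.97e-08). At that control mean Spic may also have passed the 10 TPM filter only through the LPS cultures. Alas1, the first enzyme of heme synthesis, rose with VWF at 3.5 h (1.26, SE 0.12, adjusted p = 5.03e-06), and Flvcr1, a heme exporter, fell with VWF (-1.21, adjusted p = 2.54e-06) and LPS (-1.04, adjusted p = 2.08e-06) at that time.

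Of the 14 genes of mitochondrial iron and iron-sulfur clusters, 2 of 12 tested were higher and 3 lower with VWF at 3.5 h, and 2 of 13 higher at 16 h. With LPS 4 of 12 were higher and 3 lower, then 4 of 13 higher and 5 lower. Slc25a37, the mitoferrin that brings iron into mitochondria, rose in all 4 comparisons with control. It went from 41.9 to 245 CPM with VWF and 193 CPM with LPS at 3.5 h, and from 23.4 to 63.7 and 62.1 CPM at 16 h (log2 2.58, 2.22, 1.44 and 1.45, adjusted p at most 8.04e-05).

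Of the 7 iron regulators, 5 were tested, and 3 were higher with VWF at 3.5 h and 1 lower at 16 h, while with LPS 2 were higher and 2 lower, then 1 higher and 2 lower. Ireb2, which encodes iron regulatory protein 2, passed only with VWF at 3.5 h (0.32, adjusted p = 0.00744, and 0.392 when only total counts set the scale), and Aco1, which encodes iron regulatory protein 1, was lower with LPS at 3.5 h (-0.56, adjusted p = 0.00367) and 16 h (-0.64, adjusted p = 0.0326). Fbxl5, which targets iron regulatory protein 2 for degradation, was higher with VWF at 3.5 h (0.72, adjusted p = 7.41e-06) and with LPS at both times (0.81 and 0.79). Bach1, a heme-sensing repressor of Hmox1, rose with LPS at 3.5 h (1.95, SE 0.12, adjusted p = 7.08e-08), and Nfe2l2, an activator of Hmox1 and of the ferritin genes, was higher with VWF (0.60) and lower with LPS (-1.25) at that time.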

How the data were processed

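Bulk RNA of 28 cultures was sequenced by the authors in paired 150-base reads, then aligned to GRCm38 and quantified with STAR, per the labels, the methods and the submitters' processing notes. The whole-number counts per gene deposited by the authors were used as they stand; the annotation and the strand setting of the counting were not given in the sources used here. Groups and replicate numbers came from the sample titles.

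Genes at 10 TPM or more in at least 1 culture of a comparison (TPM from the union of GENCODE release 21 exons) were tested in the groups of that comparison with edgeR 4.0.16 (R 4.3.3, limma 3.58.1), using TMM factors and the robust quasi-likelihood test, with Benjamini-Hochberg adjustment over all genes tested. SE is the log2 fold change over the square root of its F. CPM levels use TMM factors over all 28 cultures. The 2 ratios were tested by exact permutation (scipy 1.17.1, Python 3.11.15) of their log2 values, adjusted over 18 tests. Hamp count ratios have exact 95% binomial intervals, which cover counting error only, and so does a count of 0. Pairs of cultures within a group differed by at least 24.8 times sampling noise (chi-square per degree of freedom), so all were kept as separate.

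The 8 genes, the 7 iron lists and the marker lists were chosen with earlier results of these data known. Named beside the 8 were 8 genes fixed by name (Hmox1, Cp, Ireb2, Aco1, Ncoa4, Slc22a17, Bdh2 and Ltf), genes from each list among up to 3 per comparison with control with the largest change among those that passed with groups that did not overlap, and the 5 genes most correlated with Lcn2 and with Slc40a1. Same-numbered cultures deviated together in every pair only for VWF against LPS at 16 h (r = 0.16 to 0.78 over 4 pairs), where blocked values stand beside the results they change. Alternatives were DESeq2 1.42.0, median-of-ratios factors, total counts as the scale, 3 other filters on low counts, all groups in 1 fit, a replicate block, no fold change threshold and each of 28 cultures left out. A further gene of the iron lists enters their counts and is not reported here. The fitting was tested on simulated counts with known changes.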

Additional observations from a re-analysis of the deposited data

Results flagged for a closer look

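In 5 of 60 groups of 4 or 5 cultures, 1 culture lay farther from the rest than Dixon's 95% limit allows, where chance gives about 1 in 20. Control 16 h replicate 5 was 3 of them, with 23054 CPM of Ftl1, 182 CPM of Slc11a1 and a Fth1 to Ftl1 ratio of 0.283. The Hamp level of LPS 3.5 h replicate 1 was 4.20 CPM, below the others of its group, and the Fth1 to Ftl1 ratio of VWF 3.5 h replicate 5 was 1.23, above the others of its group.

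The effect of an agonist differed between 16 h and 3.5 h, by a test of the difference itself, in 7 of 15 tests across the 8 genes. Of all genes tested, 32.4% passed the same test for VWF and 48.8% for LPS. The count is thus not read as setting the 8 genes apart from other genes. For VWF the log2 effect was larger at 16 h by 0.91 for Fth1 and 0.98 for Slc11a1. For LPS it was larger by 3.94 for Lcn2, 1.47 for Fth1, 1.54 for Slc11a1 and 0.73 for Slc11a2, and it differed by -1.38 for Tfrc.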

How the results depend on the processing

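Of 1543 values of the 8 genes under alternatives, 1413 kept their direction and their side of the threshold, 44 passed where the reported value had not, 26 no longer passed and 60 changed sign. The depth limits Hamp outside the LPS groups and Lcn2 in the controls, and reads shared with copies limit Ftl1.

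The number of genes called depended on the filter and on the fold threshold. For VWF against control at 3.5 h, 1206 genes were called, 2099 with filterByExpr, 2366 with no filter and 3578 with no fold threshold, and at 16 h 679, 1362, 1378 and 2163 in the same order. For LPS against control these were 2010, 3917, 4542 and 5384 at 3.5 h and 2210, 4087, 4224 and 4293 at 16 h. For VWF against LPS they were 856, 1776, 1942 and 3768 at 3.5 h and 1932, 3897, 4242 and 4586 at 16 h. Between the times they were 1696, 3458, 3974 and 5392 with VWF, 1964, 4116, 4298 and 4253 with LPS and 759, 1565, 1524 and 3446 in the controls. For the change of the effect with time they were 1171, 1972, 1904 and 2807 for VWF and 2301, 3790, 3613 and 4267 for LPS. Of the 8 genes, those past the test for VWF against LPS at 3.5 h were 3 as reported, 5 with DESeq2 and 1 with no filter, and those whose VWF effect changed with time 2 as reported and 4 with DESeq2 (2 to 4 with 1 culture left out).

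Scaling by total counts alone moved the median log2 change of all genes to -0.22 (VWF against control, 3.5 h), -0.54 and -0.57 (LPS against control, 3.5 h and 16 h), 0.30 and 0.44 (VWF against LPS), 0.11 (VWF between the times) and 0.14 (VWF effect with time). The calls higher and lower were then 612 and 643 in place of 753 and 453 for VWF at 3.5 h, 708 and 2157 in place of 1047 and 963 for LPS at 3.5 h, and 793 and 2253 in place of 1221 and 989 for LPS at 16 h. They were 751 and 340 in place of 353 and 503 for VWF against LPS at 3.5 h, 1726 and 700 in place of 837 and 1095 at 16 h, and 612 and 570 in place of 474 and 697 for the VWF effect with time. Under it log2 values changed sign to -0.21 (Slc11a1, VWF 3.5 h), -0.21 (Fth1), -0.25 (Ftl1) and -0.51 (Tfrc, all LPS 3.5 h), 0.14 (Tfrc) and 0.050 (Slc11a2, VWF against LPS 3.5 h), 0.11 (Fth1) and 0.19 (Slc11a1, VWF against LPS 16 h), -0.013 (Slc11a2, LPS between the times), -0.014 (Tfrc, controls between the times) and 0.15 (Slc11a2, VWF effect with time).

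Other changes of sign were near 0, in values that had not passed. For Slc11a1 with VWF at 3.5 h the log2 change was -0.0040 with DESeq2, -0.0040 with median-of-ratios factors and -0.019 with all groups in 1 fit. For Ftl1 with VWF at 16 h it was 0.015 with filterByExpr and 0.033 with no filter, and for Ftl1 with LPS between the times 0.024 with the filter over all cultures. For Tfrc with LPS at 3.5 h it was -0.0013 with the filter over all cultures and -0.0077 with all groups. For Slc11a2 the VWF effect with time was 0.016 with filterByExpr, 0.018 with no filter, 0.030 with the filter over all cultures and 0.0053 with all groups.

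With the replicate number as a block, Tfrc with LPS at 3.5 h was -0.081, Ftl1 with LPS at 16 h 0.0035, and 4 of the 8 genes had a VWF effect that changed with time. Outside VWF against LPS at 16 h the numbers were not shown to pair the cultures. For the ratios the block is a sign-flip test on pairs, which cannot go below 0.0625 with 5 pairs or 0.125 with 4. Its log2 values for Fth1 to Ftl1 were 0.72 and 1.40 (VWF at 3.5 h and 16 h), 1.83 (LPS 16 h), 0.61 (VWF against LPS 3.5 h), 1.5 (LPS between the times) and -0.45 (controls). For Tfrc to Slc40a1 they were 0.96, 3.02, 0.97 (LPS 3.5 h), 3.07 (VWF against LPS 16 h), 0.041 (VWF against LPS 3.5 h), -2.31 and -1.53.

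With each culture left out in turn, log2 values ranged from -0.063 to 0.049 (Slc11a1, VWF 3.5 h), -0.22 to 0.26 (Ftl1, VWF 16 h), -0.26 to 0.11 (Tfrc, LPS 3.5 h), -0.56 to 0.10 (Ftl1, LPS 16 h), -0.30 to 0.11 (Tfrc, VWF against LPS 3.5 h) and -0.36 to 0.15 (Ftl1, LPS between the times). In the controls between the times they were -0.12 to 0.0092 (Fth1) and -0.18 to 0.18 (Tfrc). The VWF effect with time was -0.0094 to 0.51 (Ftl1) and -0.059 to 0.072 (Slc11a2), and the LPS effect with time -0.44 to 1.19 (Hamp). The Fth1 to Ftl1 ratio was -0.017 to 0.14 (LPS 3.5 h), -0.79 to -0.49 (VWF against LPS 16 h), 0.14 to 0.32 (VWF between the times) and 1.39 to 1.69 (LPS between the times). The Tfrc to Slc40a1 ratio was 0.65 to 1.15 and -0.038 to 0.42 (LPS 3.5 h and 16 h), -0.19 to 0.31 (VWF against LPS 3.5 h) and -2.5 to -2.0 (LPS between the times). The causes of these changes were not tested.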
